A study of Mus musculus with 33 samples.

Results

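Axons of cultured mouse motoneurons labelled as knockdown of the noncoding RNA 7SK were compared directly with axons labelled as knockdown of the RNA-binding protein hnRNP R. 7SK axons gave 4 libraries, hnRNP R axons gave 3, and GFP control axons, the common control of both knockdowns, gave 4. All came from primary motoneurons of strain CD-1 grown in microfluidic chambers, in which axons grow into a compartment of their own. No further allele or agent is named, and the labels used here state neither the age of the animals nor how each knockdown was made. The matching somatodendritic compartments, called cell bodies below, had 4 libraries of 7SK knockdown and 3 of hnRNP R knockdown. The series holds 33 libraries in all, and 7 of them enter the direct comparison. Groups follow the sample titles and the table headers, but the label of 1 of the 4 7SK axon libraries also names the hnRNP R cell body table, and those of the 3 hnRNP R cell body libraries also name the 7SK cell body table. Which libraries stand behind each group value could not be checked from the tables. Each group came as 1 FPKM value per gene record (fragments scaled to transcript length and library size), so the spread between libraries cannot be seen and the read depth is unknown.

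Members of the comparison were chosen by level. The hnRNP R table was multiplied by 1.03, the median ratio of the control axon values that both tables hold, and a record was kept if either knockdown had at least 1 FPKM. This left 13635 of 37926 records, of which 321 name several neighbouring genes that share 1 value. The log2 ratio is that of FPKM plus 0.1, 7SK over hnRNP R, so a positive value means higher in 7SK axons. Just inside the minimum, 253 records between 1 and 1.1 FPKM had a median absolute log2 ratio of 3.47, and just outside it, 261 records between 0.9 and 1 FPKM had 3.34. Some genes that every cell uses, such as Rps29 and Rpl21, are listed at 0 in 1 of the groups, so no ratio is given below against a value of 0.

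7SK is an abundant nuclear RNA that, with the proteins Larp7, Mepce and Hexim1, holds the elongation kinase P-TEFb inactive. hnRNP R binds 7SK and messenger RNAs and is known in motoneurons for carrying beta-actin messenger RNA into axons. Axons hold a selected set of messenger RNAs, with many for ribosomal and mitochondrial proteins, and an axon compartment can also take up processes and RNA of other cells in the culture.

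The targeted genes were read first. Rn7sk, the gene of 7SK (GRCm38 chromosome 9, 78175303 to 78175633), had 3508 FPKM in 7SK axons, 4673 in hnRNP R axons and 2708 in control axons. The axons labelled as 7SK knockdown were thus the lower of the knockdown groups but above the control, and the label is not borne out by the axonal value. In cell bodies Rn7sk had 6370 FPKM in the 7SK group, 12419 in the hnRNP R group and 9104 in the control, so there the 7SK group was the lowest. Hnrnpr (chromosome 4, 136310942 to 136345981) had 9.71 FPKM in 7SK axons, 4.10 in hnRNP R axons and 10.2 in control axons, a log2 ratio of 1.23. In cell bodies it had 30.9 FPKM in the 7SK group, 9.97 in the hnRNP R group and 25.0 in the control. Each target was lower in its own knockdown than in the other, in axons and in cell bodies. The names 7SK axons and hnRNP R axons below follow the labels.

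Across the transcriptome the knockdown groups differed widely in both directions. Of the 13635 records, 2842 (20.8%) were at least 2-fold higher in 7SK axons and 2552 (18.7%) at least 2-fold lower, around a median log2 ratio of 0.04. Of the higher records 924 are listed at 0 in hnRNP R axons, and of the lower records 808 are listed at 0 in 7SK axons. The share past 2-fold in either direction was 53.8% for records under 5 FPKM in the higher group, 32.6% from 5 to 20, 22.1% from 20 to 100 and 16.7% above 100 FPKM. Weakly expressed records therefore supplied most of the 2-fold differences. Among 8504 records with at least 5 FPKM in any axon group, the median absolute log2 difference was 0.58 between 7SK and hnRNP R axons, 0.60 between 7SK and control axons and 0.48 between hnRNP R and control axons. In these group values the knockdowns stood about as far from each other as 7SK axons stood from the control.

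**Figure D1:**
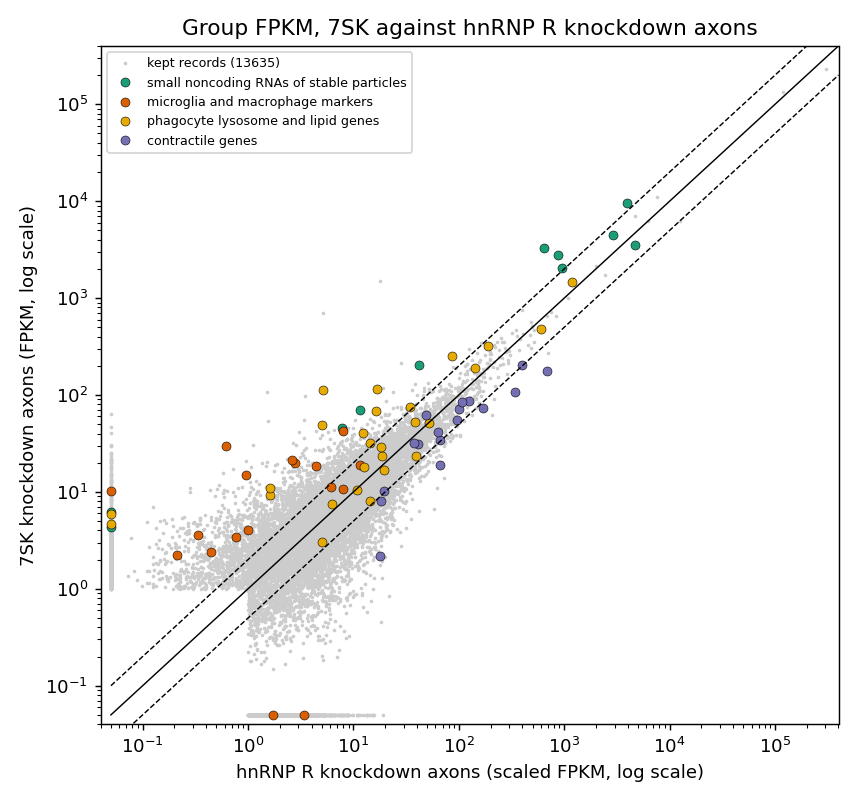
FPKM of each kept record in 7SK axons (vertical, log scale) against scaled FPKM in hnRNP R axons (horizontal, log scale), 1 point per record. The solid line marks equal values and the dashed lines 2-fold; values under 0.05 are drawn at 0.05. Small noncoding RNAs and phagocyte genes lie mostly above the line, and contractile genes mostly below it.

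No single record passed a test of the direct difference. An approximate two-sided z test was possible for the 943 records that the authors had tested in both axon tables, with standard errors worked back from their p-values. With Benjamini-Hochberg adjustment 0 of 943 (0%) passed 0.05, and 33 had an unadjusted p under 0.05 where chance alone would give 47.2. With errors from the authors' test statistic the counts were 0 and 0. Each error also holds the spread of the control, which the direct ratio does not use, so z comes out too small. A count below that of chance is therefore no sign that differences are absent. The median standard error was 0.68 on the log2 scale, so a record with that error needed a 2.52-fold difference to reach an unadjusted p of 0.05. The other 12692 kept records had no such test, among them 5291 of the 5394 past 2-fold. The gene groups below are accordingly described by their values, to be read against all kept records (20.8% higher, 18.7% lower, median 0.04), and single ratios are values of these libraries only.

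Small noncoding RNAs of stable ribonucleoprotein particles stood higher in 7SK axons. Rny1, a Y RNA that binds the protein Ro60 (chromosome 6, 47788069 to 47788180), had 3311 FPKM in 7SK axons, 647 in hnRNP R axons and 1422 in control axons. The 7SK value was the highest of the 3 groups and the hnRNP R value the lowest. The log2 ratio was 2.36 ± 0.66 (SE), with an adjusted p of 0.316 in the approximate z test, the smallest of the 943 records. The second Y RNA, Rny3, had 2028 FPKM in 7SK axons, 955 in hnRNP R axons and 2073 in control axons, so here 7SK axons were close to the control and hnRNP R axons lower.

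Rmrp, the RNA of the RNase MRP particle that processes ribosomal RNA, had 2792 FPKM in 7SK axons, 867 in hnRNP R axons and 682 in control axons. Its log2 ratio was 1.69 ± 0.64 (SE), with an adjusted p of 0.993 in the z test. The authors' deposited table called Rmrp higher in 7SK axons than in the control with q = 0.0036, whereas for hnRNP R axons it gave q = 0.832. For Rmrp it was thus the 7SK group that stood apart from the other groups. Rpph1, the RNA of RNase P, which trims transfer RNA precursors, differed less, with 4505 FPKM in 7SK axons, 2925 in hnRNP R axons and 1382 in control axons. U8 (Snord118), a small nucleolar RNA needed for ribosomal RNA maturation, had 70.2 FPKM in 7SK axons, 11.5 in hnRNP R axons and 40.6 in control axons.

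Of 26 RNAs in that list 11 were kept, 9 of them at least 2-fold higher in 7SK axons and 0 lower, against 20.8% and 18.7% of all kept records. The median log2 ratio was 2.27, or 1.69 over the 9 members above 0 in both groups, and Rn7sk at -0.41 was the 1 member with a ratio below 0. By RefSeq class, small nuclear RNAs went both ways: of 24 kept, 14 (58.3%) were at least 2-fold higher in 7SK axons and 8 (33.3%) lower. Small nucleolar RNAs, which guide chemical modification of ribosomal RNA, had 66 kept records. Of these 45 (68.2%) were at least 2-fold higher in 7SK axons and 14 (21.2%, near the 18.7% of all kept records) at least 2-fold lower. Their median level was 17.6 FPKM in 7SK axons, 3.38 in hnRNP R axons and 2.95 in control axons. Records were kept by their level in either knockdown and not in the control, so these medians partly reflect the selection. A value of 0 was common among the 66 records, in 14 of 7SK axons, 26 of hnRNP R axons and 32 of control axons. Over the 26 records above 0 in both groups the median log2 ratio was 1.89, with 24 ratios above 0. Among these Snora68 had 54.6 FPKM in 7SK axons, 3.37 in hnRNP R axons and 7.63 in control axons. FPKM of RNAs shorter than a sequenced fragment depends on the length correction, and the part of library preparation in these differences was not tested.

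**Figure D2:**
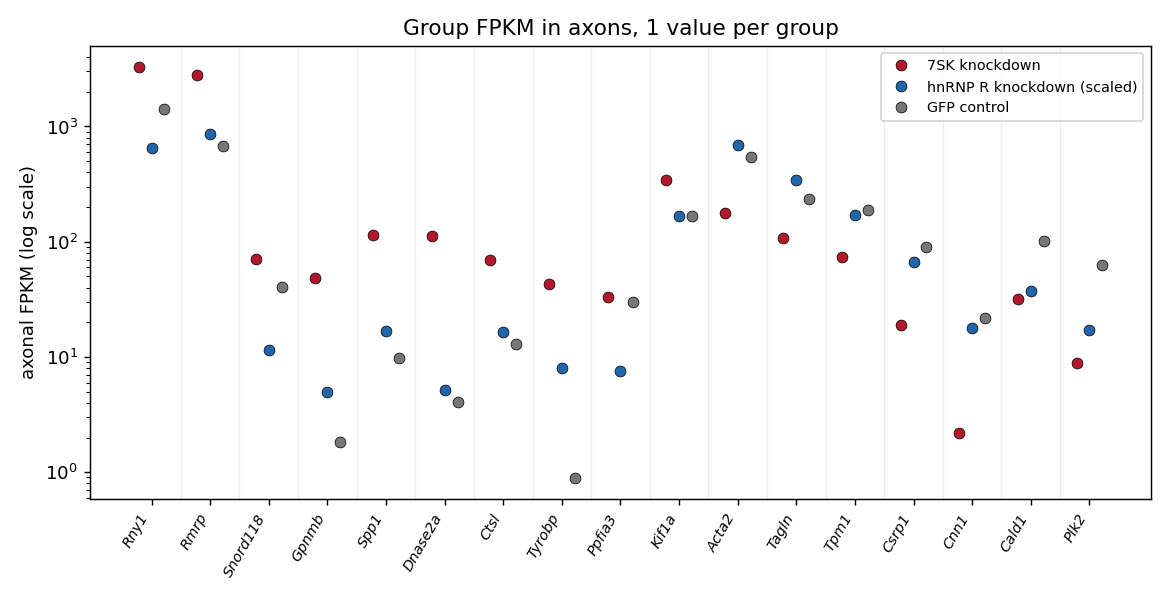
Axonal FPKM (vertical, log scale) of 17 genes in 7SK axons, hnRNP R axons and control axons, 1 group value per point. Rny1, Rmrp, Snord118 and the phagocyte genes are highest in 7SK axons, Ppfia3 is lowest in hnRNP R axons, and Acta2, Tagln, Tpm1, Csrp1, Cnn1, Cald1 and Plk2 are lowest in 7SK axons.

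Genes of microglia and other phagocytes formed the next group that was higher in 7SK axons. Of 20 microglia and macrophage markers 17 were kept, 12 of them (70.6%, against 20.8% of all kept records) at least 2-fold higher in 7SK axons and 2 (11.8%, against 18.7%) at least 2-fold lower, with a median log2 ratio of 2.30 over the 14 above 0 in both groups. Summed over the list, their level was 215 FPKM in 7SK axons, 53.1 in hnRNP R axons and 27.4 in control axons. Tyrobp, the signalling adaptor of the receptor Trem2, had 43.0 FPKM in 7SK axons, 8.03 in hnRNP R axons and 0.886 in control axons. Lyz2, the lysozyme of myeloid cells, had 29.4, 0.614 and 2.64 FPKM in 7SK, hnRNP R and control axons. C1qa, a chain of the first complement component, had 21.4 FPKM in 7SK axons, 2.60 in hnRNP R axons and 1.09 in control axons. For Tyrobp and C1qa the hnRNP R value lay between the other groups, and for Lyz2 it was the lowest. Tmem119, a marker of resident microglia, is listed at 0 in the 3 axon groups, and Fcer1g and Cd14 are listed at 0 in 7SK axons. In such bulk values fewer cells of a type and less RNA per cell cannot be told apart.

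Lysosomal and lipid-handling genes that phagocytes use at high level shared that direction. Of 30 genes 27 were kept, 12 (44.4%, against 20.8% of all kept records) at least 2-fold higher in 7SK axons and 0 lower (against 18.7%). The median log2 ratio was 0.67, or 0.52 over the 25 members above 0 in both groups. Gpnmb, a glycoprotein of lysosome-rich phagocytes, had 48.8 FPKM in 7SK axons, 5.00 in hnRNP R axons and 1.81 in control axons. Spp1, the secreted protein osteopontin, had 114 FPKM in 7SK axons, 16.8 in hnRNP R axons and 9.78 in control axons. Dnase2a, the lysosomal DNase, had 111 FPKM in 7SK axons, 5.15 in hnRNP R axons and 4.10 in control axons. In all 3 the hnRNP R value stayed nearer to the control than to the 7SK value.

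The cathepsins, which digest protein in lysosomes, were intermediate. Ctsl had 69.1 FPKM in 7SK axons, 16.4 in hnRNP R axons and 13.0 in control axons. The record of Ctsd, merged with Ifitm10, had 254 FPKM in 7SK axons, 85.4 in hnRNP R axons and 70.9 in control axons. The authors' deposited table called Gpnmb, Spp1, Dnase2a, Ctsl and Ctsd higher in 7SK axons than in control axons, with q between 0.0036 and 0.0252. Fth1, the heavy chain of the iron store ferritin, differed less, with 1465 FPKM in 7SK axons, 1191 in hnRNP R axons and 568 in control axons. At the other end were Mfge8, a bridge protein for engulfing dying cells, with a log2 ratio of -0.84, and Cd63, a membrane protein of late endosomes, with -0.74.

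Contractile genes of the smooth muscle type were lower in 7SK axons. Of 20 genes 17 were kept, 0 at least 2-fold higher in 7SK axons (against 20.8% of all kept records) and 6 (35.3%, against 18.7%) at least 2-fold lower. Of the 17 ratios 16 lay below 0, around a median of -0.91. Their summed level was 1101 FPKM in 7SK axons, 2411 in hnRNP R axons and 2316 in control axons. Acta2, smooth muscle alpha-actin (chromosome 19, 34241090 to 34255336), had 176 FPKM in 7SK axons, 692 in hnRNP R axons and 543 in control axons. The 7SK value was the lowest, and the log2 ratio was -1.97 ± 0.64 (SE), with an adjusted p of 0.924 in the z test. The authors' deposited table called Acta2 lower in 7SK axons than in the control with q = 0.0036 and gave q = 0.877 for hnRNP R axons.

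Other members followed Acta2. Tagln, the actin-binding protein transgelin, had 107 FPKM in 7SK axons, 342 in hnRNP R axons and 237 in control axons. Tpm1, a tropomyosin that lies along actin filaments, had 73.8 FPKM in 7SK axons, 171 in hnRNP R axons and 190 in control axons. Csrp1, a LIM-domain partner of alpha-actinin, had 18.8 FPKM in 7SK axons, 66.1 in hnRNP R axons and 89.9 in control axons. In each of these the hnRNP R value was closer to the control than the 7SK value was. Cnn1, calponin of differentiated smooth muscle, had 2.18 FPKM in 7SK axons, 17.8 in hnRNP R axons and 21.6 in control axons. Cald1, the actin-binding caldesmon, had 31.9 FPKM in 7SK axons, 37.6 in hnRNP R axons and 101 in control axons, so here the hnRNP R value was closer to the 7SK value than to the control. Against the control, 16 of the 17 records were lower in 7SK axons and 11 of the 17 in hnRNP R axons. Myl9, a myosin light chain, was the member with a ratio above 0, at 61.8 FPKM in 7SK axons, 49.1 in hnRNP R axons and 87.7 in control axons.

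Markers of mesenchymal cells were read beside these genes. Of 18 such markers 12 were kept, 4 (33.3%, against 20.8% of all kept records) at least 2-fold higher in 7SK axons and 4 (33.3%, against 18.7%) at least 2-fold lower, with a median log2 ratio of 0.19. Acta2 and Tagln are also in that list. Its summed level was 697 FPKM in 7SK axons, 1527 in hnRNP R axons and 1266 in control axons. Acta2, Tagln and Vim held most of each sum, so it says little about the other markers. Vim had 325 FPKM in 7SK axons, 451 in hnRNP R axons and 420 in control axons. Col1a1, a collagen chain, went the other way from Acta2, with 46.1 FPKM in 7SK axons, 15.0 in hnRNP R axons and 27.1 in control axons. Lum, Fap and S100a4 are listed at 0 in all axon groups, Dcn and Twist1 at 0 in both knockdowns, and the part of mesenchymal cells in the contractile values was not tested. Astrocyte and radial glia markers had 2 of 21 kept records at least 2-fold higher and 2 lower (9.52% each, under the share of all kept records), with a median of -0.41.

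Contractile genes are classical targets of serum response factor, which binds the CArG box, so the promoter windows of the list were searched for it. The RefSeq windows (GRCm38.p6) run from 250 bases before to 50 after the start site, and the motif reads the same class of sequence on both strands. The 18 contractile genes with a window had 21 windows, and a CArG box lay in 4 of the 21, of 4 genes (22.2% of genes). Of all 32851 windows 535 (1.63%) held a box. The list is made of classical targets, so its boxes say nothing about the axonal ratios, and the part of this factor was not tested. A box with 1 core letter changed to G or C lay in 2 of the 21 windows, of 2 genes, and in 8.50% of all windows. Acta2 held a pair of these. The exact boxes found and the pair in Acta2, the most abundant member, are shown, 5′ to 3′ on the strand of the gene, with the box in capitals and the flanks in lower case.
Acta2, chr19:34255438-34255467, minus strand, 1 core letter changed: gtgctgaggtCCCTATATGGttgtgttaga
Acta2, chr19:34255388-34255417, minus strand, 1 core letter changed: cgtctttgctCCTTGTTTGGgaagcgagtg
Vcl, chr14:20929161-20929190, plus strand: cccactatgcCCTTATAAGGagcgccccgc
Cnn2, chr10:79988534-79988563, plus strand: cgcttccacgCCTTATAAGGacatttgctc
Myl6, chr10:128493040-128493069, minus strand: gctcttacttCCTTATATGGgcaggaccta
Myl9, chr2:156775293-156775322, plus strand: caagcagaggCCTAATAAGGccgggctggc
The log2 ratios of these genes ran from -1.97 for Acta2 through -1.17 for Vcl, a focal adhesion protein, -0.95 for the calponin Cnn2 and -0.32 for the myosin light chain Myl6 to 0.33 for Myl9. The genes with an exact box had ratios from -1.17 to 0.33, and Cnn1, the lowest of the list at -2.98, had no match in these windows. The box is a match of letters, not evidence of binding.

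**Figure D3:**
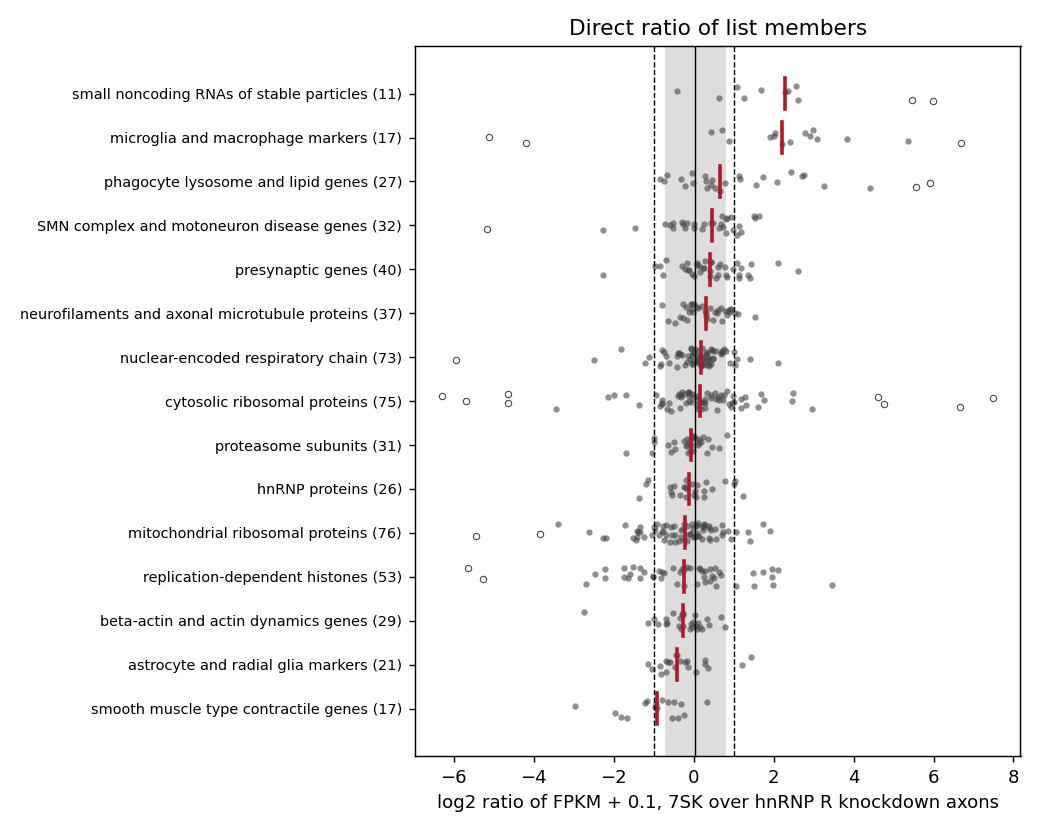
Log2 ratio of FPKM + 0.1, 7SK over hnRNP R axons (horizontal), for the kept members of 15 gene lists, 1 point per record, number of records in parentheses. Open points are listed at 0 in 1 group and their place depends on the 0.1 added. Red bars mark list medians, the grey band the interquartile range of all kept records and the dashed lines 2-fold; small noncoding RNAs and microglia markers lie furthest right and contractile genes furthest left.

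Neuronal genes showed no common direction across lists. Of 40 kept presynaptic records 9 were at least 2-fold higher in 7SK axons (22.5%, near the 20.8% of all kept records) and 1 lower (2.50%, against 18.7%), with a median log2 ratio of 0.42. Medians were 0.04 over 40 records of adhesion and guidance genes and -0.02 over 29 of ion channel genes. Ppfia3, the active-zone scaffold liprin-alpha-3, had 33.0 FPKM in 7SK axons, 7.58 in hnRNP R axons and 29.7 in control axons. Here hnRNP R axons stood apart, and the authors' deposited table called them lower than the control with q = 0.0437. Sv2c, a synaptic vesicle glycoprotein, had 16.4 FPKM in 7SK axons, 2.61 in hnRNP R axons and 8.05 in control axons. The opposite order held for Syp, the vesicle protein synaptophysin, with 26.8 FPKM in 7SK axons, 52.7 in hnRNP R axons and 32.0 in control axons. The most abundant member, the vesicle GTPase gene Rab3a, differed little, at 77.6, 57.2 and 89.4 FPKM in 7SK, hnRNP R and control axons.

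Of 37 kept records of neurofilament and axonal microtubule proteins 3 were at least 2-fold higher in 7SK axons (8.11%, under the 20.8% of all kept records) and 0 lower, with a median of 0.30. Kif1a, a kinesin that carries synaptic vesicle precursors along axons, had 343 FPKM in 7SK axons, 167 in hnRNP R axons and 167 in control axons. Stmn4, a stathmin that binds tubulin, had 75.3 FPKM in 7SK axons, 26.0 in hnRNP R axons and 58.9 in control axons. For Kif1a hnRNP R axons equalled the control and 7SK axons were higher, whereas Stmn4 was low in hnRNP R axons. The lowest ratios of the list at 5 FPKM or more were -0.79 for the microtubule protein gene Dcx and -0.64 for Dpysl5, which regulates growth cones.

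Defining motoneuron markers were mostly under the minimum. Chat, Mnx1, Isl2 and Slc5a7, genes of acetylcholine synthesis, motoneuron identity and choline uptake, are listed at 0 in all axon groups, and Isl1 at 0 in both knockdowns. Of 18 markers 9 were kept, 2 (22.2%) at least 2-fold higher in 7SK axons and 1 (11.1%) lower, against 20.8% and 18.7% of all kept records. Of the 9 ratios 8 lay above 0, with a median of 0.39. Against the control, 5 of the 9 records were lower in 7SK axons and 8 in hnRNP R axons. Nefl, the light neurofilament subunit, was the highest, at 35.5 FPKM in 7SK axons, 22.0 in hnRNP R axons and 37.1 in control axons.

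Among 32 kept records of the SMN complex and of motoneuron disease genes 6 were at least 2-fold higher in 7SK axons and 3 lower, with a median of 0.47. The share past 2-fold was 18.8% higher and 9.38% lower, neither above that of all kept records (20.8% and 18.7%). Smn1, the gene of the SMN protein that assembles spliceosomal particles, had 30.0 FPKM in 7SK axons, 15.3 in hnRNP R axons and 20.8 in control axons. For Smn1 the control lay between the knockdowns. The heat shock genes Hspb1 and Hspb8, mutated in motor neuropathy, were the lowest at 5 FPKM or more, with log2 ratios of -2.28 and -1.47.

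Protein partners of 7SK showed no common direction. Of 13 kept genes 3 (23.1%, near the 20.8% of all kept records) were at least 2-fold higher in 7SK axons and 0 lower, with a median of 0.27. Larp7, which shields the end of 7SK, had 8.08 FPKM in 7SK axons, 2.47 in hnRNP R axons and 6.85 in control axons. Hexim2, a P-TEFb inhibitor, had 11.0 FPKM in 7SK axons, 1.99 in hnRNP R axons and 1.46 in control axons. Below 0 lay Nelfe, a subunit of the negative elongation factor, at -0.59. Of 26 hnRNP genes 3 were at least 2-fold higher in 7SK axons, Hnrnpr itself among them, and 3 lower (11.5% each, under the shares of all kept records), with a median of -0.10. Syncrip, the close relative of hnRNP R, in a record merged with Snx14 and Gm20537, had 23.5 FPKM in 7SK axons, 17.1 in hnRNP R axons and 21.2 in control axons.

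Among genes of translation and respiration, no list described here had a share past 2-fold far above that of all kept records (20.8% higher, 18.7% lower). Of 75 kept cytosolic ribosomal protein records 15 were at least 2-fold higher in 7SK axons and 9 (12.0%) lower, with a median of 0.17, and the most abundant, Rpl41, had 2122 FPKM in 7SK axons, 1981 in hnRNP R axons and 1226 in control axons. Many of these genes have near-identical processed copies, so single values are uncertain. Of 73 nuclear-encoded respiratory chain records 5 were at least 2-fold higher and 5 lower (6.85% each), with a median of 0.19. Atp5k, a subunit of the ATP synthase, was the highest of them at 5 FPKM or more, at 87.5 FPKM in 7SK axons, 20.2 in hnRNP R axons and 35.4 in control axons. The 4 records that hold the messenger RNAs of the mitochondrial genome, 2 of them merged over several genes, all had ratios above 0, with a median of 0.57 and 0 past 2-fold. Among them mt-Cytb, encoding cytochrome b, had 7079 FPKM in 7SK axons, 4710 in hnRNP R axons and 3753 in control axons. Of 76 mitochondrial ribosomal protein records 5 (6.58%) were at least 2-fold higher in 7SK axons and 16 (21.1%, near the 18.7% of all kept records) lower, with a median of -0.21. Mrpl2, a large-subunit protein, had 4.14 FPKM in 7SK axons, 26.0 in hnRNP R axons and 10.0 in control axons. Of 29 genes of beta-actin and actin dynamics 0 were at least 2-fold higher and 3 (10.3%) lower, with a median of -0.26, and Actb itself had 1725 FPKM in 7SK axons, 2448 in hnRNP R axons and 2277 in control axons.

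Genes the authors had called against the control were set side by side. Their deposited tables called 31 of 1009 tested records (3.07%) in 7SK axons and 2 of 1749 (0.114%) in hnRNP R axons. Of the 31, 15 were called higher and lay at least 2-fold above hnRNP R axons, 4 were called lower and lay at least 2-fold below, and 12 lay within 2-fold. The same 7SK libraries enter both ratios, so these counts only describe where the hnRNP R value fell. Plk2, a kinase induced by neuronal activity, was among the 12, with 8.95 FPKM in 7SK axons, 17.2 in hnRNP R axons and 63.1 in control axons. Apoe, the lipid carrier of glia and macrophages, was another, with 324 FPKM in 7SK axons, 188 in hnRNP R axons and 63.1 in control axons. Nes, the intermediate filament nestin of neural progenitors, had 22.3 FPKM in 7SK axons, 36.3 in hnRNP R axons and 69.9 in control axons. In these 3, as in Cald1, both knockdowns lay on the same side of the control. Agbl5, a tubulin deglutamylase, and Jarid2, a partner of Polycomb complexes, were instead near the control in hnRNP R axons: Agbl5 had 38.7, 4.99 and 6.69 FPKM and Jarid2 44.9, 8.53 and 7.07 FPKM in 7SK, hnRNP R and control axons. Mtx1, a mitochondrial outer membrane protein, was the second gene called in hnRNP R axons (authors' deposited table, q = 0.0437), at 14.6 FPKM in 7SK axons, 47.2 in hnRNP R axons and 9.17 in control axons.

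The most extreme ratios at 20 FPKM or more were of another kind. Of the 10 highest, 9 are listed at 0 in hnRNP R axons, and 6 of the 10 are small nucleolar or small nuclear RNAs by RefSeq class. Below them Gm10800 (chromosome 2, 98666547 to 98667301) had 1490 FPKM in 7SK axons, 17.8 in hnRNP R axons and 21.4 in control axons. Its neighbour Gm10801 had 701 FPKM in 7SK axons, 5.16 in hnRNP R axons and 19.0 in control axons. Gm10717, Gm10718 and Gm26870, which share 1 locus on chromosome 9 (3000282 to 3038316), had 63.3, 30.7 and 53.9 FPKM in 7SK axons and at most 1.56 FPKM in hnRNP R axons. Gm26870 was named after its values were seen. These predicted genes lie in repeated sequence, so the split of reads among them is uncertain. In cell bodies Gm10800 had 14.4 FPKM in the 7SK group and 15.6 in the hnRNP R group, without that difference.

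The lowest ratios at that level were mostly of protein-coding genes. Shb, an adaptor of receptor tyrosine kinases, had 2.76 FPKM in 7SK axons, 28.0 in hnRNP R axons and 16.7 in control axons. 1500015O10Rik had 6.67 FPKM in 7SK axons, 58.4 in hnRNP R axons and 22.9 in control axons. Baiap2, a scaffold of actin-rich cell protrusions, had 6.37 FPKM in 7SK axons, 41.7 in hnRNP R axons and 38.7 in control axons. For Baiap2 hnRNP R axons were near the control, whereas 1500015O10Rik was lower in 7SK axons and higher in hnRNP R axons than in control axons. The others of the 10 lowest were Anapc15, Gm7862, Sez6, Mrpl2, Slco3a1, Ndufs6 and Pcp4l1, with log2 ratios between -2.87 and -2.49.

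Cell bodies served as a second compartment for the same ratio, scaled in the same way. Of 12053 kept records with at least 1 FPKM there, 1547 (12.8%) were at least 2-fold higher in the 7SK group and 1028 (8.53%) at least 2-fold lower. Of 1993 records that were 2-fold higher in 7SK axons, 57.7% had a ratio above 0 in cell bodies, and of 2085 records that were 2-fold lower, 52.9% did. Of the 7975 records within 2-fold in axons 53.8% had a ratio above 0, so the axonal direction went with little difference in cell bodies. The Pearson correlation of the log2 ratios over 6964 records with at least 5 FPKM in both compartments was 0.12, given as a description over genes.

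Gene groups differed in this respect. In cell bodies 12 of 15 microglia markers had a ratio above 0, with a median of 0.83, and Lyz2 had 22.6 FPKM in the 7SK group, 7.58 in the hnRNP R group and 17.0 in the control. Small nucleolar RNAs had ratios above 0 in 34 of 47 records, with a median of 1.35. Contractile genes, lower in 7SK axons, had ratios above 0 in 14 of 17 records in cell bodies, with a median of 0.66. Acta2 had 130 FPKM in the 7SK group, 54.8 in the hnRNP R group and 76.3 in the control, and Tagln had 41.8 FPKM in the 7SK group, 19.6 in the hnRNP R group and 22.6 in the control. The difference between the compartments for Acta2 was -3.22 ± 0.69 (SE) on the log2 scale, with an adjusted p of 0.00223, and Acta2 was the 1 record of 854 (0.117%) that passed this approximate z test. With errors from the authors' test statistic its error was 1.30 and its adjusted p 1.00, so the call rests on how the error is taken. Presynaptic genes had ratios above 0 in 13 of 40 records in cell bodies, with a median of -0.10, against 29 of 40 in axons.

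**Figure D4:**
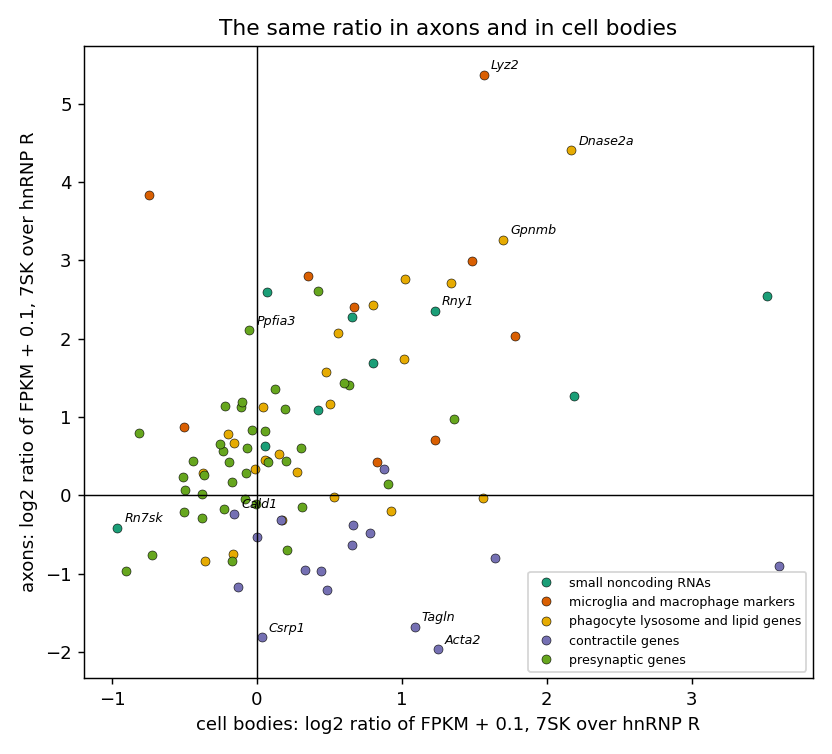
Log2 ratio of FPKM + 0.1, 7SK over hnRNP R, in axons (vertical) and in cell bodies (horizontal) for members of 5 gene lists with at least 5 FPKM in either axon group and no value listed at 0. Microglia, phagocyte and small noncoding RNA genes lie mostly at upper right, contractile genes mostly at lower right, and Acta2 at -1.97 in axons and 1.25 in cell bodies.

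Contacts of hnRNP R with the RNAs were read from iCLIP, a method that counts cDNAs ending where ultraviolet light had linked the protein to RNA. The 2 unfractionated libraries of CD-1 motoneurons, made with antibody 1, held 359005 and 319381 cDNAs in genes, and no IgG background of motoneurons was used here. Among protein-coding records from 5 to 20 FPKM, 49.7% of 727 records higher in 7SK axons had at least 10 cDNAs, as did 37.7% of 748 records lower in 7SK axons and 59.5% of 3313 records within 2-fold. Their median levels, as the mean of both knockdowns, were 6.02, 5.73 and 8.41 FPKM, so records past 2-fold were also weaker. At 20 FPKM or more the shares were 53.6% of 207, 46.5% of 170 and 61.2% of 1497, in the same order. Thus neither direction held more crosslinked genes than the records within 2-fold, and gene length, with which such counts grow, was not taken into account. Kif1a had 115 and 60 cDNAs in the 2 libraries, and Jarid2 115 and 59. Acta2 had 2 and 1, Tagln 1 and 1, Spp1 1 and 2 and Gpnmb 0 and 1. Few cDNAs thus fell in these 4 genes. Other contractile genes varied, with 22 and 28 in Tpm1 and 26 and 30 in Cald1. Csrp1 and Cnn1 had 0 and 0, and Myl9 had 1 and 0.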

How the data were processed

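The authors deposited 4 comparison tables, 1 per knockdown and compartment. They hold FPKM per group, log2 fold changes over the control, a test statistic (a score) and p-values with q-values, all by the authors; Cufflinks 2.2.1, FastQC 0.10.1 and build GRCm38 are named in the submitters' processing notes. No source used here names the aligner. The iCLIP files hold a deposited cDNA count per gene on mm9 and Ensembl 59, per the file headers; genes were joined by name (81.5% of single-gene records), and 357 further per-sample columns were not used. Ratios, counts and the z test were computed in Python 3.11.15 with scipy 1.17.1. Errors of the z test are the authors' log2 fold change divided by the normal quantile of their p-value. The z test was run on simulated data drawn with these same errors, so the choice of error was not tested there. Both tables share their controls, so the error counts control noise that the direct ratio does not hold, which makes z smaller. For a gene with several records the one with the highest FPKM was taken. RefSeq classes matched 94.6% of kept records. Members and lists were chosen with earlier results of these data known. Named genes are the targets, the authors' calls, the 10 highest and 10 lowest single-gene ratios at 20 FPKM or more, and per list the 2 highest and 2 lowest at 5 FPKM or more and the most abundant; other genes were named after their values were seen, and some genes of the rule are not reported here. Separate cultures are not stated, so any spread behind the authors' p-values may be technical.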

Additional observations from a re-analysis of the deposited data

Results flagged for a closer look

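Acta2 was set apart because its 7SK over hnRNP R ratio differed between compartments: the log2 ratio in axons minus that in cell bodies was -3.22 ± 0.69 (SE), with an adjusted p of 0.00223 in the approximate z test over 854 records. The ratio was -1.97 in axons and 1.25 in cell bodies. The test was added after the data were seen, and with errors from the authors' test statistic 0 of 854 records passed.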

How the results depend on the processing

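Counts past 2-fold moved by over 1.5 times under stricter limits. With a minimum of 5 FPKM 1223 records were higher and 1117 lower in 7SK axons, with 20 FPKM 296 and 199, and with a fold of 4 instead of 2 1426 and 1211. With the other pseudocounts, scalings, own controls, no minimum or single-gene records, counts were 2213 to 3831 higher and 1975 to 3644 lower. Protein-coding records alone, a setting added after seeing the data, gave 2102 higher and 2015 lower. The z test called 0 records under each alternative, with between 0 and 42 at an unadjusted p under 0.05. In the cytoplasmic iCLIP library the share with 10 cDNAs among records lower in 7SK axons was -17.0 percentage points from that within 2-fold, against -21.8 in the main count, and the cause was not tested. Across 37 list medians and 210 named ratios, 12 medians and 49 ratios moved by 0.25 or more under some alternative, and 0 medians of at least 0.5 and 0 ratios of at least 1 changed sign. Leaving out replicates was not run because the files hold 1 value per group. No paired analysis was possible because the files hold 1 value per group. Unknown read depth, values listed at 0 and merged records limit single ratios.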

Other observations

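Other gene groups are given beside all kept records, of which 20.8% were at least 2-fold higher and 18.7% lower in 7SK axons. Replication-dependent histone genes, which encode the core of nucleosomes, had 9 of 53 kept records (17.0%) at least 2-fold higher in 7SK axons and 16 (30.2%) lower, with a median log2 ratio of -0.23, whereas in cell bodies 46 of 51 had a ratio above 0, with a median of 0.98. Among 19 named long noncoding RNAs 7 (36.8%) were at least 2-fold higher in 7SK axons and 3 (15.8%) lower, with a median of 0.65. H19, in a record merged with Mir675, had 27.4 FPKM in 7SK axons, 10.2 in hnRNP R axons and 13.8 in control axons, and Malat1, the most abundant of them, had 286, 297 and 345 FPKM in 7SK, hnRNP R and control axons. The record of Pvt1 lay in the other direction, with 6.64 FPKM in 7SK axons, 23.3 in hnRNP R axons and 4.66 in control axons. Of 22 cholesterol synthesis genes 1 (4.55%) was at least 2-fold higher in 7SK axons and 2 (9.09%) lower, fewer than among all kept records, with a median of -0.19. The record Gm26924 held 38.5% of summed FPKM in 7SK axons and 47.5% in hnRNP R axons.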
